A study of Mus musculus with 16 samples.

Results

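Cdk1, the catalytic kinase of maturation-promoting factor, was followed with its cyclin partners (Ccnb1, Ccnb2, Ccnb3 and Ccna2), the kinases that inhibit it (Wee2 and Pkmyt1) and the phosphatases that release it (Cdc25a, Cdc25b and Cdc25c). These 10 genes were taken by name from an expression table of 28618 entries for 27987 gene names, and they fill 11 entries because Ccnb3 is listed as 2 entries. Libraries were made at the GV and MII stages for WT and Psma7 cKO mice, 4 in each of the 4 groups. Psma7 cKO stands for Psma7 fl/fl;Zp3-Cre, in which the Zp3 promoter drives Cre in growing oocytes, so the floxed proteasome subunit gene is deleted there and not in follicular cells. The WT animals are described in the labels only as wildtype. All females were 3 to 4 weeks old and were primed with 5 IU PMSG. GV oocytes were collected 44 h later, whereas females for eggs received hCG at that time and their eggs were flushed from the oviduct 14 to 16 h afterwards and freed of cumulus cells with 0.3% hyaluronidase. Each library came from a pool of 5 cells according to the labels, and the methods give a larger pool. The sources do not say whether ovulated cells that had not reached MII were kept out of the Psma7 cKO egg pools. The labels name the libraries of each group as biological replicates. Whether their pools came from separate animals is not stated, so p-values measure the spread between these pools.

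Maturation-promoting factor is a pair of Cdk1 and a B-type cyclin. In a fully grown GV oocyte it is held inactive by phosphorylation of Cdk1 by WEE2 and PKMYT1, and by destruction of cyclin B. Meiosis resumes when CDC25 phosphatases remove these phosphates, and the cyclins are destroyed by the proteasome at anaphase and made again on the way to MII. Transcription is silent during this time, so maternal mRNAs are stored, translated, polyadenylated or degraded. Many mRNAs translated during maturation carry a cytoplasmic polyadenylation element (CPE) close to the cleavage signal at the 3′ end.

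For each gene the coding reference transcript ranked first by APPRIS principal-isoform labels was taken, and the longest where ranks tied (GENCODE M21, GRCm38). Its last 150 bases were searched on the transcript strand for the CPE letters TTTTAT and TTTTAAT, neither of which contains the other. The cleavage signals AATAAA and ATTAAA were searched for as well. For Pkmyt1, whose 3′ end after the stop codon is shorter, 124 bases were searched. Ccnb1, Ccnb3 and Wee2 held a CPE, and all 10 genes held a cleavage signal. The 30 bases around the CPE nearest the signal are shown because these 3 genes include the 2 most abundant members. Capitals mark the CPE and, where it lies in the window, the cleavage signal.
Ccnb1, chr13:100778775-100778804, minus strand: ctcatttgctgTTTTAATttatacatctga
Ccnb3, chrX:6979702-6979731, minus strand: tcttgaaattacTTTTATgaaagaagagaa
Wee2, chr6:40466766-40466795, plus strand: taTTTTAATccagatcattgtaAATAAAga
In Wee2 the CPE lay 13 bases before the last signal of the window, in Ccnb3 42 bases and in Ccnb1 113 bases. The Ccnb1 window held 2 signals, and the distance to the other was not measured. Wee2 also held TTTTAT in the window. No match was found in Cdk1, Ccnb2, Ccna2, Pkmyt1, Cdc25a, Cdc25b or Cdc25c, which says only that these letters are absent from these windows. A CPE was present in 23.4% of 18283 coding genes with a 3′ end of at least that length. It was present in 38.5% of the 2151 such genes whose transcripts were higher in WT eggs than in WT GV oocytes, in 18.6% of the 4078 that were lower and in 31.5% of the 1640 that did not pass the test. A cleavage signal was present in 80.3% of the 18283 genes. These shares are descriptions with no test.

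By the reference annotation, all 10 are protein-coding genes on 9 chromosomes. Cdk1 is at chr10:69335146-69352938 and Ccnb1 at chr13:100778650-100786570, both on the minus strand. Ccnb2 is at chr9:70407692-70421547, Ccnb3 at chrX:6979652-7041619 and Ccna2 at chr3:36564865-36572150, all minus. Wee2 is at chr6:40439088-40466813, Pkmyt1 at chr17:23726336-23736735, Cdc25a at chr9:109875579-109893895 and Cdc25b at chr2:131186949-131198497, all plus, while Cdc25c is on chromosome 18. Among the reference transcripts of these genes only Ccnb1 shared runs of 50 bases with other genes, 42.1% of its runs in all, chiefly with the copy Ccnb1-ps. How the authors' counting divided such reads is not given in the sources used here, so the level of Ccnb1 is uncertain.

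Expression was given as FPKM, fragments counted relative to transcript length and to the total mapped in the library, which is a share of a library scaled for length and not an amount per cell. Fewer transcripts per cell and fewer contributing cells cannot be told apart in such pools. cDNA was primed with oligo-dT, so a change in transcript number and a change in poly(A) tail cannot be told apart either. Depth was 10.5 to 15.7 M fragments per library. The values stepped in whole fragments at a single length per entry, so the fragments behind each value could be read back. Ccnb1 rested on 15566 to 36183 fragments per library, Wee2 on 9284 to 15168 and Cdk1 on 26 to 524. Among GV oocytes Psma7 was 142 to 201 FPKM with the WT genotype and 11.1 to 18.0 with the deletion, and among eggs 97.7 to 172 and 13.6 to 59.9, so the genotypes did not overlap at either stage (limma, adjusted p = 8.98e-07 in GV oocytes and 0.0359 in eggs). With the deletion Psma7 was higher in eggs than in GV oocytes (log2 difference 1.27, adjusted p = 0.0188), unevenly so, at 13.6 FPKM in library 1 and 35.0 to 59.9 in the others, while in WT it was lower (-0.41, adjusted p = 0.0407). All 8 oocyte markers examined were above 1 FPKM in every library, with sums of 9348 to 15790 FPKM per library. The 12 cumulus and granulosa markers summed to 13.3 to 21.3 FPKM, most of it Kitl and Cyp19a1. The other 10 summed to 1.69 to 4.51 FPKM in GV oocytes and to 0.387 to 1.11 in eggs. Ptx3, Tnfaip6, Foxl2 and Amh were at 0 in most libraries. Cyp11a1 was 0.973 to 2.63 FPKM in GV oocytes and 0.273 to 0.899 in eggs. Fshr was 0.363 to 0.862 FPKM in GV oocytes and at most 0.0343 in eggs, and Inha reached 0.815 and 0.106. Kitl, Cyp19a1 and Has2 had higher means in eggs than in GV oocytes of each genotype.

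Ccnb1 was by far the most abundant member and Cdk1, its kinase partner, was among the scarcer ones. In WT GV oocytes the mean level was 664 FPKM for Ccnb1 (place 75 from the top of all entries), 306 for Wee2 (place 180), 32.4 for Ccnb2, 29.8 for Ccna2, 22.3 for Cdc25a, 13.0 for Pkmyt1, 12.2 for Cdk1, 9.36 for Cdc25c, 7.66 for the first Ccnb3 entry, 7.31 for Cdc25b and 0.540 for the second Ccnb3 entry. In that order the ranges over the 4 libraries overlapped for Ccnb2 and Ccna2, for Pkmyt1 and Cdk1, for Cdc25c and Ccnb3, and for Ccnb3 and Cdc25b. In WT eggs Ccnb1 reached 1061 FPKM (place 51) and Wee2 241 (place 257), and Cdk1, at 0.824, became the scarcest of the 11 entries (place 9667). Here the ranges overlapped for Ccnb2 (40.6 FPKM) and Ccna2 (38.8 FPKM), for Pkmyt1 (4.55 FPKM) and Cdc25c (4.13 FPKM), and among Cdc25b (1.81 FPKM), the second Ccnb3 entry (1.61 FPKM) and Cdk1.

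**Figure D1:**
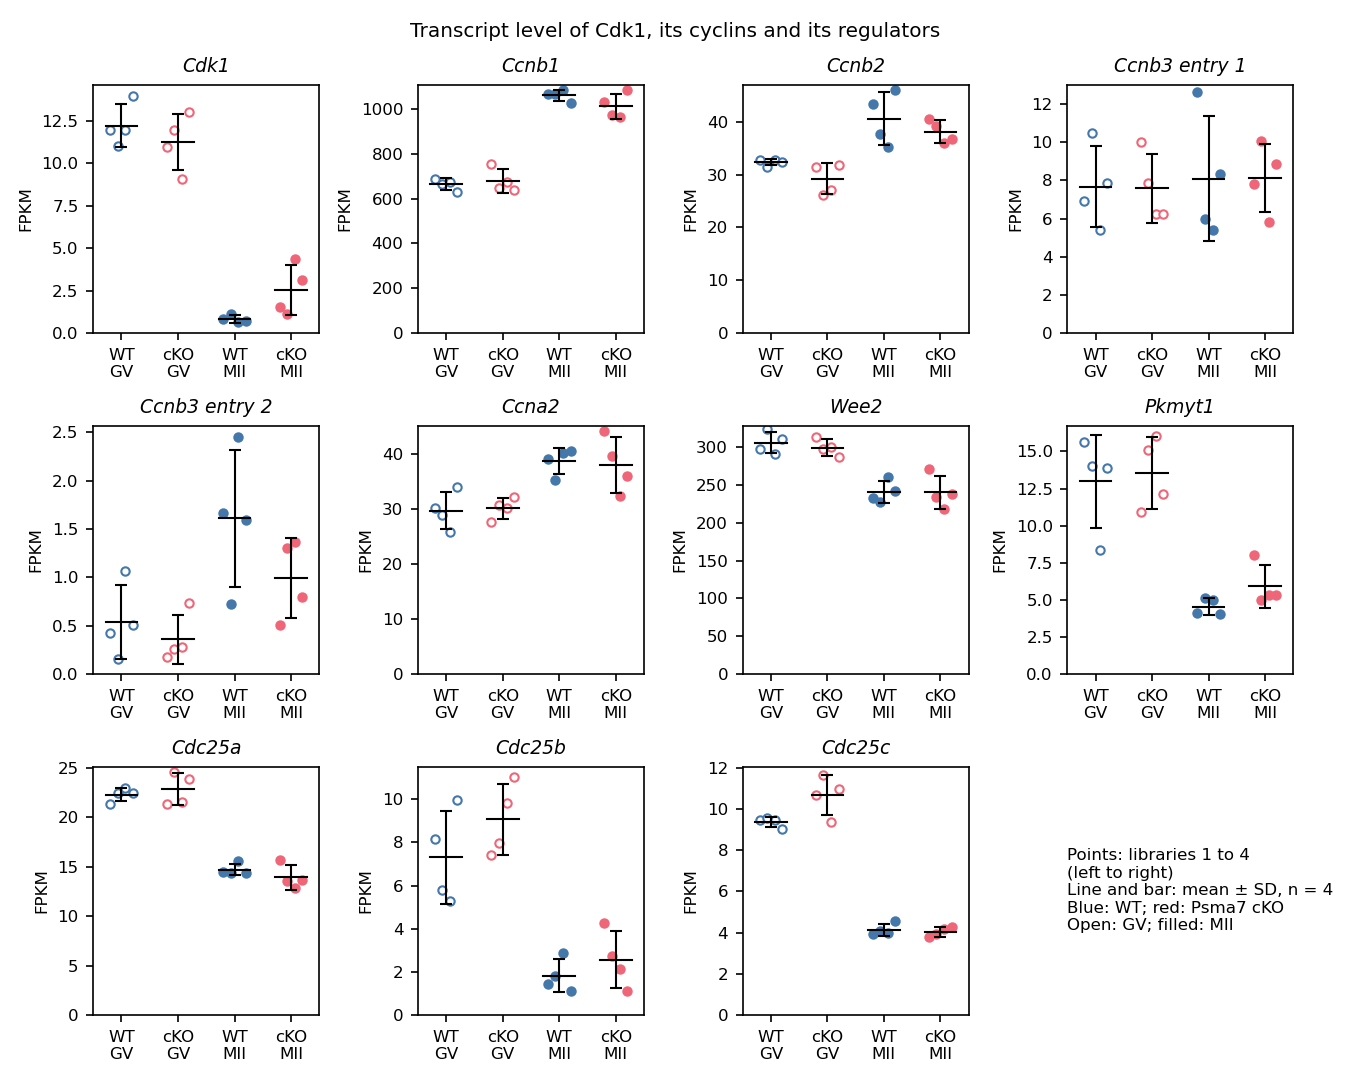
FPKM of the 11 entries in each of the 16 libraries (points), with the mean and SD of 4 libraries per group, each panel on its own axis from 0. Cdk1, Pkmyt1 and the 3 Cdc25 genes are lower in eggs, Ccnb1 is higher, and the genotypes overlap in every panel at each stage.

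The first comparison was between GV oocytes and MII eggs in WT, the course of normal maturation. Cdk1 and its regulators fell, Ccnb1, Ccnb2 and Ccna2 rose, and Ccnb3 gave no single answer. Tests were made with limma on log2 FPKM, with values under 1 set to 1, over entries with a mean of at least 1 FPKM, and p-values were adjusted over all of these (Benjamini-Hochberg, 0.05). Of the 11 entries 10 passed, 4 higher and 6 lower in eggs, against 78.5% of the 10475 entries tested, 26.1% higher and 52.4% lower. Among the 4 higher is the second Ccnb3 entry, a low one that reached the filter through its egg libraries. Libraries of the stages did not overlap for 9 of 11 entries, against 72.7% of all entries. Only Cdk1 and Cdc25b had means over 3-fold apart on the floored scale, where 23.2% of all entries did. The median log2 difference was -0.35 over the 11 entries and -0.44 over all entries. Most of the transcriptome thus passed, and the share of members that did so is no result about them as a set. They differed from each other in size and sign.

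Cdk1 showed the deepest fall. Its level in WT GV oocytes was 11.9, 11.0, 11.9 and 14.0 FPKM, and in WT eggs 0.848, 1.12, 0.635 and 0.689 FPKM. Every egg library was under every GV library, and the egg values rested on only 30, 47, 26 and 26 fragments. The means were 14.8-fold apart, and the log2 difference with values under 1 FPKM set to 1 was -3.56 (SE 0.12, adjusted p = 1.64e-09), lower than all but 2.64% of entries. With a floor of 0.1 FPKM it was -3.92 for Cdk1.

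The cyclins moved the other way. Ccnb1, the main B-type cyclin of the oocyte, was 689, 665, 675 and 628 FPKM in WT GV oocytes and 1068, 1069, 1084 and 1025 FPKM in WT eggs. The ranges were far apart relative to their width, with a log2 difference of 0.68 (SE 0.07, adjusted p = 4.29e-06), with means 1.60-fold apart. Ccnb2, the B-type cyclin that can stand in for cyclin B1, went from 32.7, 31.4, 32.8 and 32.4 to 43.4, 37.7, 35.1 and 46.1 FPKM. Its lowest egg library was just above its highest GV library, and it rose by 0.32 on the log2 scale (SE 0.10, adjusted p = 0.0107). Ccna2, which encodes the A-type cyclin of somatic and meiotic cells, went from 30.2, 28.9, 25.8 and 34.1 to 39.1, 35.3, 40.3 and 40.6 FPKM. This rise of 0.39 on the log2 scale (SE 0.10, adjusted p = 0.00394) was also without overlap.

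Ccnb3, the cyclin needed for anaphase of the first meiotic division, has 2 entries, and these gave different answers. The first entry was 6.91, 10.5, 5.40 and 7.88 FPKM in WT GV oocytes and 12.6, 5.97, 5.43 and 8.33 in WT eggs. Its stages overlapped fully, and the log2 difference was 0.04 with an interval of -0.57 to 0.64 (adjusted p = 0.906). The second entry was 0.430, 0.157, 1.07 and 0.508 FPKM in WT GV oocytes and 1.67, 0.721, 2.45 and 1.60 in WT eggs. It passed at 0.65 on the log2 scale (SE 0.23, adjusted p = 0.0216) although a GV library lay above an egg library. This entry rested on 10 to 160 fragments per library, and 3 of its 4 WT GV values were set to 1. It passed the filter on low values through the egg libraries, its mean was too low to be tested without WT egg library 1 or 3, and without a filter its adjusted p was 0.0945. The length implied by its values, 4554 nt, is that of the longest reference transcript of Ccnb3, and the first entry implied 4570 nt.

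Both inhibitory kinases fell, to very different degrees. Wee2, the oocyte kinase that phosphorylates Cdk1, was 298, 324, 292 and 311 FPKM in WT GV oocytes and 232, 228, 261 and 242 FPKM in WT eggs. It remained abundant, and the decrease of 0.35 on the log2 scale was without overlap (log2 difference -0.35, SE 0.07, adjusted p = 0.00120). This difference was above that of 52.5% of entries, whose median was -0.44, so Wee2 fell no more than a typical entry. Pkmyt1, the membrane-bound kinase with the same target, was 15.6, 14.0, 8.39 and 13.9 FPKM and then 4.08, 5.10, 4.98 and 4.04 FPKM. Its log2 difference was -1.48 (SE 0.19, adjusted p = 2.93e-05), and eggs held 35.1% ± 4.35 (SD, n = 4) of the mean GV level against 78.7% ± 4.73 for Wee2. The ratio of Wee2 to Pkmyt1 accordingly lay between 19.1 and 34.8 in WT GV oocytes and between 44.7 and 59.9 in WT eggs.

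The 3 phosphatases fell as well. Cdc25b, the family member needed for meiotic resumption in mouse oocytes, was 8.15, 5.81, 5.31 and 9.96 FPKM in WT GV oocytes and 1.46, 1.79, 2.88 and 1.12 FPKM in WT eggs. The log2 difference was -2.05 (SE 0.29, adjusted p = 6.41e-05), and its libraries within a stage were more spread than those of its relatives. Cdc25c was 9.45, 9.53, 9.46 and 9.02 FPKM in GV oocytes and 3.93, 4.07, 3.97 and 4.57 in eggs, a clear separation with a log2 difference of -1.18 (SE 0.10, adjusted p = 1.40e-06). Cdc25a was 21.3, 22.5, 23.0 and 22.5 FPKM and then 14.5, 14.4, 15.6 and 14.4 FPKM. Its log2 difference was -0.60 (SE 0.08, adjusted p = 3.88e-05), above that of 45.6% of entries. Cdc25a was the most abundant phosphatase transcript at both stages on the FPKM scale.

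The same comparison was made within Psma7 cKO. Here 9 of 10 entries tested passed, 3 higher and 6 lower in eggs, against 74.0% of 10748 entries (23.0% higher and 51.0% lower), and 9 did not overlap between stages, against 68.6% of all entries. Again 2 members had means over 3-fold apart, Cdk1 and Cdc25b, beside 18.0% of all entries. The median log2 difference was -0.52 over the 10 entries and -0.42 over all. Cdk1 was 10.9, 12.0, 9.09 and 13.0 FPKM in Psma7 cKO GV oocytes and 1.55, 1.12, 4.34 and 3.11 FPKM in Psma7 cKO eggs. The log2 difference of Cdk1 was -2.34 (SE 0.39, adjusted p = 0.000457), without overlap, and the egg libraries spread widely. Ccnb1 was 754, 649, 676 and 639 FPKM and then 1031, 974, 964 and 1084 FPKM, a rise of 0.58 on the log2 scale (SE 0.08, adjusted p = 0.000194). Ccnb2 rose by 0.39 (adjusted p = 0.00490) and Ccna2 by 0.33 (adjusted p = 0.0229) on the same scale. Without Psma7 cKO GV replicate 1, or either of Psma7 cKO MII replicates 1 and 2, the adjusted p of Ccna2 was 0.0571 to 0.0599.

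All 5 regulators fell in Psma7 cKO, with log2 differences of -0.32 for Wee2 (adjusted p = 0.00639), -1.21 for Pkmyt1 (adjusted p = 0.000315), -0.72 for Cdc25a (adjusted p = 0.000159), -1.97 for Cdc25b (adjusted p = 0.000878) and -1.40 for Cdc25c (adjusted p = 6.53e-06). In FPKM, Wee2 went from 287 to 313 in GV oocytes to 218 to 271 in eggs, and Pkmyt1 from 10.9 to 16.1 down to 4.99 to 8.03. Cdc25a went from 21.4 to 24.6 down to 12.8 to 15.7, Cdc25b from 7.43 to 11.0 down to 1.10 to 4.28, and Cdc25c from 9.36 to 11.7 down to 3.76 to 4.29. None of these 5 overlapped between stages, and the log2 difference of Wee2 was above that of 53.5% of entries. The first Ccnb3 entry was 6.22 to 10.0 FPKM in GV oocytes and 5.84 to 10.0 in eggs, with a log2 difference of 0.10 and an interval of -0.37 to 0.58 (adjusted p = 0.677). The second Ccnb3 entry was 0.172 to 0.730 FPKM in GV oocytes and 0.509 to 1.37 in eggs, and its mean was too low to be tested in Psma7 cKO. Both genotypes were fitted separately, and the difference between them was tested as described further on.

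**Figure D2:**
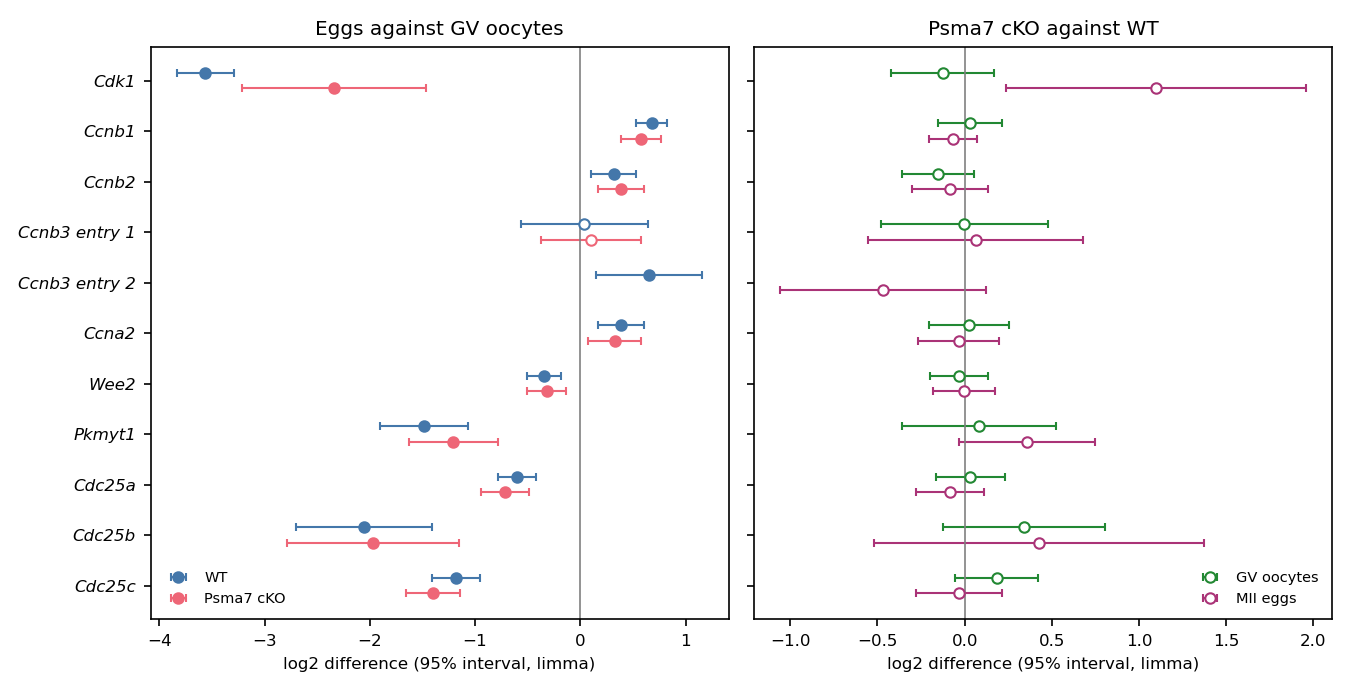
Log2 differences with 95% limma intervals for the 11 entries, eggs minus GV oocytes in each genotype on the left and Psma7 cKO minus WT at each stage on the right, with filled points for an adjusted p under 0.05. On the left all points except those of the first Ccnb3 entry are filled, and on the right none is filled and the interval of Cdk1 in eggs lies farthest to the right.

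The comparison of genotypes in GV oocytes asked whether loss of Psma7 changed these stored mRNAs before maturation. None of the 10 entries tested passed in limma, against 0.118% of 11062 entries, 0 had an unadjusted p under 0.05, where 10.7% of all entries did, and 0 passed in limma-voom on the fragments read back. No entry was free of overlap, against 6.67% of all entries. The 95% intervals give the size of difference these libraries leave possible on the log2 scale. They ran from -0.16 to 0.22 for Ccnb1, from -0.20 to 0.14 for Wee2, from -0.17 to 0.23 for Cdc25a, from -0.20 to 0.26 for Ccna2 and from -0.36 to 0.05 for Ccnb2. For Cdk1 the interval was -0.42 to 0.17 and for Cdc25c -0.05 to 0.42. The widest were those of Cdc25b (-0.12 to 0.80), Pkmyt1 (-0.36 to 0.52) and the first Ccnb3 entry (-0.48 to 0.48). Of these 10 entries Wee2 had the narrowest interval and the first Ccnb3 entry the widest.

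In eggs again none of the 11 entries passed in limma, against 8.02% of 9492 entries (6.53% higher and 1.49% lower in Psma7 cKO), and 0 passed in limma-voom. Only Cdk1 had an unadjusted p under 0.05, where 29.4% of all entries did, and 0 of 11 were free of overlap, against 20.7% of all entries. With the library values given above, Cdk1 averaged 0.824 FPKM ± 0.219 among WT eggs and 2.53 ± 1.48 among Psma7 cKO eggs (SD, n = 4 each). Psma7 cKO libraries 3 and 4 were far above every WT library, library 1 was slightly above, and library 2, at 1.12 FPKM from 41 fragments, was level with WT library 2, at 1.12 FPKM from 47. Exact 95% Poisson intervals, which cover counting error only, were 0.806 to 1.52 and 0.826 to 1.49 FPKM for these, and 3.71 to 5.05 FPKM for Psma7 cKO library 3.

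The log2 difference of Cdk1 between egg genotypes was 1.10 (SE 0.38, interval 0.24 to 1.96, adjusted p = 0.0987), a higher value than for 96.3% of entries. WT egg values of 0.848, 0.635 and 0.689 FPKM were set to 1 in this fit, so it understates the difference in means, which were 3.07-fold apart. With a floor of 0.1 FPKM the log2 difference was 1.45 (limma, adjusted p = 0.0603). Cdk1 passed with all 16 libraries in a single fit (adjusted p = 0.0213) and without Psma7 cKO replicate 2 (1.42, adjusted p = 0.0269). Over 17 alternatives the adjusted p ran from 0.0213 to 0.204 and the log2 difference of Cdk1 from 0.77 to 1.45. The study reported transcripts raised in Psma7 cKO eggs from these same libraries, so the direction of Cdk1 here is not independent evidence.

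Other transcripts with a deep fall in WT maturation were set beside Cdk1 in each egg library. Cdk1 was 1 of 397 entries whose mean fell more than 10-fold from GV oocytes to eggs in WT, with values under 1 FPKM set to 1, which is 3.79% of the entries tested. Relative to the mean GV level of the genotype, Cdk1 stood at 6.94, 9.20, 5.20 and 5.64% in the WT egg libraries, and the summed FPKM of the 396 others at 5.93, 6.80, 6.22 and 6.05%. In Psma7 cKO eggs Cdk1 stood at 13.8, 9.98, 38.6 and 27.7% and the 396 others at 12.7, 8.80, 34.5 and 19.0%. The 4 Psma7 cKO libraries kept the same order in both measures, with library 3 highest and library 2 lowest, whereas the 4 WT libraries did not. Psma7 cKO eggs held 2.45 times the WT level of Cdk1 on the floored scale, and the median of the 396 others was 2.50, with 205 of them higher than Cdk1. All 397 entries were picked by their low WT egg values, which also enter these ratios and the WT percentages. The choice alone raises a ratio to WT eggs, so the 396 others are no independent benchmark for Cdk1. The part of these transcripts in the Cdk1 result was not tested.

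**Figure D3:**
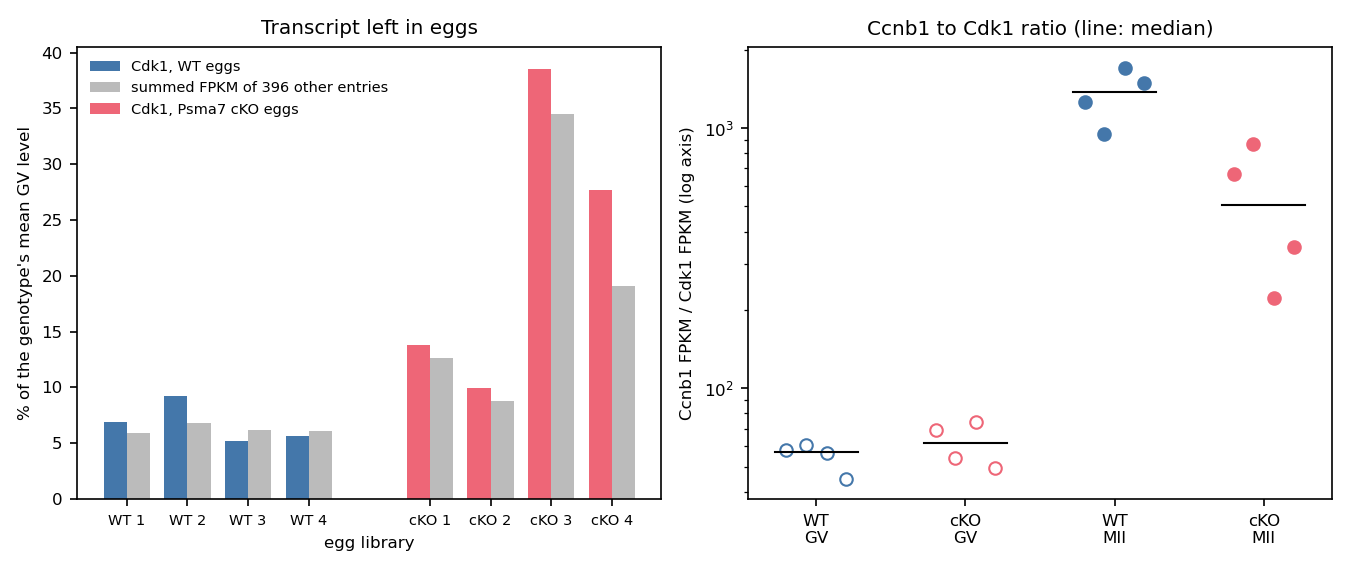
Left, Cdk1 FPKM and the summed FPKM of 396 other entries in each egg library as a percentage of the mean GV level of the same genotype. The 396 entries were picked by their fall in WT. Right, the ratio of Ccnb1 to Cdk1 FPKM per library on a log axis with the group median. Psma7 cKO libraries 3 and 4 keep the most Cdk1 at 38.6 and 27.7%, the grey bars keep the same order over the Psma7 cKO libraries only, and the ratio in Psma7 cKO eggs lies between that of GV oocytes and WT eggs.

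The balance of cyclin to kinase transcript was also followed. The ratio of Ccnb1 to Cdk1 FPKM was 57.6, 60.4, 56.5 and 45.0 in WT GV oocytes and 68.9, 54.1, 74.4 and 49.2 in Psma7 cKO GV oocytes. It was 1258, 951, 1706 and 1487 in WT eggs and 666, 868, 222 and 348 in Psma7 cKO eggs. Every egg library was above every GV library, and every Psma7 cKO egg library was below every WT egg library. Cdk1 itself overlapped between the egg genotypes and did not pass, and 20.7% of all entries were free of overlap between them. Ccnb1 averaged 1061 FPKM in WT and 1013 in Psma7 cKO eggs, and the ratios are given with no test. The nearest libraries of the genotypes, 868 and 951, had level Cdk1 (1.12 FPKM each) and differed in Ccnb1 (974 and 1069 FPKM), a gap inside the counting error of Cdk1. Other ratios overlapped between egg genotypes. With WT eggs given first, Ccnb2 to Ccnb1 was 0.0324 to 0.0449 and 0.0339 to 0.0403, Wee2 to Pkmyt1 was 44.7 to 59.9 and 33.7 to 46.9, and Cdc25b to Wee2 was 0.00462 to 0.0110 and 0.00461 to 0.0158.

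For the other members in eggs the intervals of the log2 difference between genotypes included 0. They were -0.21 to 0.07 for Ccnb1, -0.18 to 0.17 for Wee2, -0.28 to 0.11 for Cdc25a, -0.28 to 0.21 for Cdc25c, -0.27 to 0.20 for Ccna2 and -0.30 to 0.13 for Ccnb2. Pkmyt1 was 8.03, 4.99, 5.29 and 5.31 FPKM in Psma7 cKO eggs, with 3 of 4 libraries above every WT egg library, and had a log2 difference of 0.36 and an interval of -0.03 to 0.75 (adjusted p = 0.203). Cdc25b was 4.28, 2.74, 2.13 and 1.10 FPKM, with an interval of -0.52 to 1.37 that leaves room for a more than 2-fold difference in eggs. The second Ccnb3 entry was 0.509, 1.31, 1.37 and 0.802 FPKM, at -0.47 with an interval of -1.06 to 0.12.

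The genotype by stage interaction tested whether the change from GV oocyte to egg itself differed between genotypes. None of 10 entries passed in limma, against 1.26% of 10615 entries, and 0 passed in limma-voom. Cdk1 alone had an unadjusted p under 0.05, where 17.7% of all entries did. For Cdk1 the interaction was 1.22 on the log2 scale (SE 0.42, interval 0.32 to 2.12, adjusted p = 0.146), and it passed only without Psma7 cKO MII replicate 2 (1.55, adjusted p = 0.0151). For Wee2 the interval was -0.19 to 0.24, for Ccnb1 -0.30 to 0.11, for Cdc25a -0.36 to 0.13 and for Cdc25c -0.51 to 0.07. The intervals for Ccnb2 (-0.21 to 0.35), Ccna2 (-0.37 to 0.25), Pkmyt1 (-0.32 to 0.87), the first Ccnb3 entry (-0.73 to 0.86) and Cdc25b (-0.98 to 1.15) included 0 as well.

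Genes around Cdk1 were counted from a list of 35, of which 34 were in the table as 35 entries. It holds other cyclins and CDKs with the CKS proteins, the CDK-activating kinase, and CDK inhibitors with checkpoint kinases. The rest are genes grouped as activators of Cdk1 action, and the phosphatases that oppose it. From GV oocytes to eggs, 7 of 27 entries tested were higher and 16 lower in WT, and 6 of 28 were higher and 17 lower in Psma7 cKO, beside the shares of all entries given above. The median log2 difference was -0.81 in WT and -0.69 in Psma7 cKO. In the first group 2 entries rose and 5 fell in each genotype, of 8 tested. The 3 largest rises were the same in both genotypes. Cks1b, a small subunit that binds CDKs, was 131 to 192 FPKM in WT GV oocytes and 374 to 495 in WT eggs, a log2 difference of 1.60 in WT and 1.71 in Psma7 cKO. Its relative Cks2 was 20.6 to 34.4 and then 63.4 to 85.2 FPKM in WT, at 1.43 and 1.59, and Chek1, a checkpoint kinase, was 140 to 164 and then 269 to 306 FPKM in WT, at 0.90 and 0.89.

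The deepest falls in the list were also shared. Cdk2, the S-phase kinase, was 8.24 to 16.4 FPKM in WT GV oocytes and 0.944 to 1.53 in WT eggs, at -3.50 in WT and -3.52 in Psma7 cKO. Ccnf, cyclin F, was 12.8 to 20.7 and then 1.58 to 1.91 FPKM in WT, at -3.35 and -3.02, and Cdk4, the G1 kinase, was 3.47 to 7.21 and then 0.114 to 0.482, at -2.33 and -2.45. All 4 WT egg values of Cdk4 were under 1 FPKM and were set to 1, so its log2 difference in WT understates the fall in mean FPKM, from 5.20 to 0.306 in WT and from 6.81 to 1.17 in Psma7 cKO. Other cyclins of the list fell too, such as Ccnd3, cyclin D3, at -1.78 and Ccne1, cyclin E1, at -0.98 in WT. All 3 subunits of the CDK-activating kinase fell in WT and 2 of 3 in Psma7 cKO. Of 6 activators 2 rose and 4 fell in each genotype. Mastl, the Greatwall kinase, was 65.5 to 76.5 FPKM in WT GV oocytes and 107 to 123 in WT eggs, and its substrate Arpp19 was 56.9 to 67.9 and then 87.4 to 99.5. Plk1, polo-like kinase 1, was 74.5 to 108 and then 24.8 to 32.8 FPKM. Of the inhibitors 2 of 4 rose and 1 fell in WT, and 2 of 5 rose and 3 fell in Psma7 cKO. Of 6 entries for phosphatases 1 rose and 3 fell in WT, and 0 rose and 3 fell in Psma7 cKO. Mastl, Arpp19, Plk1, Ccnd3 and Ccne1 were named after their values were seen.

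**Figure D4:**
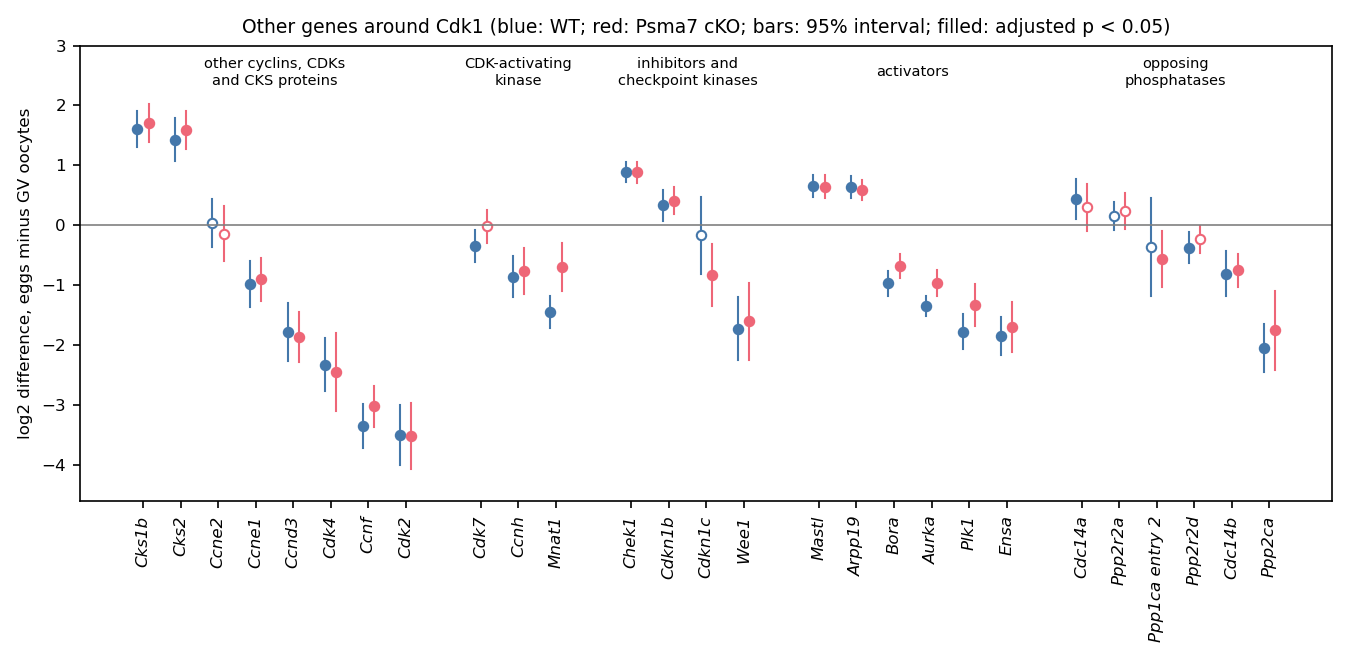
Log2 difference between eggs and GV oocytes with 95% limma intervals for the genes around Cdk1 tested in both genotypes, grouped by role, with filled points for an adjusted p under 0.05. Cks1b and Cks2 lie highest and Cdk2 and Ccnf lowest in both genotypes.

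Between genotypes few genes of the list passed. In GV oocytes 0 of 29 entries passed in limma and in limma-voom, where 0.118% of all entries passed in limma. An unadjusted p under 0.05 was found for 2, where 10.7% of all entries had one. In eggs 1 of 26 passed in limma and in limma-voom, below the 8.02% of all entries in limma. By limma it was Aurka, Aurora kinase A of the spindle poles, at 102, 106, 114 and 117 FPKM in WT eggs and 147, 126, 161 and 154 FPKM in Psma7 cKO eggs. Every Psma7 cKO library was above every WT library, and the log2 difference was 0.42 (SE 0.09, adjusted p = 0.0325). The count was 0 without any 1 of the WT egg libraries or of Psma7 cKO egg libraries 1, 3 and 4, and 2 without Psma7 cKO library 2. In GV oocytes Aurka was 259 to 298 FPKM in WT and 268 to 303 in Psma7 cKO, with an interval of -0.15 to 0.21. For the interaction 0 of 27 passed in limma and limma-voom, where 1.26% of all entries passed in limma. An unadjusted p under 0.05 was found for 3, where 17.7% of all entries had one, and Aurka stood at 0.39 (limma, adjusted p = 0.0965).

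Entries with the most similar profile over the 16 libraries were found among 10615 by the root mean square distance between log2 profiles centred on their mean. For Cdk1 they were Tyms, which encodes thymidylate synthase, Setd4, Elof1, Szrd1 and Eif1ax, at distances of 0.18 to 0.20 on the log2 scale. Tyms averaged 22.2 FPKM (WT) and 22.7 FPKM (Psma7 cKO) in GV oocytes, and 1.82 and 4.99 FPKM in eggs. Eif1ax, a translation initiation factor transcript, went through the same shape at 680, 588, 64.0 and 153 FPKM. For Ccnb1 they were Nlrp4a, Degs1, Ctage5, Mff and Ing3, at 0.07 to 0.08. Nlrp4a averaged 197, 182, 306 and 288 FPKM and Mff, a mitochondrial fission factor, 439, 433, 727 and 682 FPKM in the same order of groups. The similarity is a description over libraries that share their preparation, and it carries no test.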

How the data were processed

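RNA of pooled mouse oocytes and eggs was made into cDNA by Smart-seq2 in lysis buffer with 0.2% Triton X-100 and ERCC spike-in. The authors deposited gene-level FPKM values in 1 table. Their processing notes name TopHat2 2.1.1, Cufflinks 2.2.1 and mm10, and the annotation is not given in the sources used here. All 16 columns were matched to samples by column name. The table holds 0 ERCC entries, so all values are shares of a library.

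FPKM values under 1 were set to 1, as in the study, and log2 values were fitted with limma 3.58.1 in R 4.3.3 (empirical Bayes with an intensity trend) over entries with a mean of at least 1 FPKM. Genotypes and stages were compared on their own 8 libraries and the interaction on all 16. Benjamini-Hochberg adjustment covered all entries tested, with a threshold of 0.05. No tests were made on lists, ratios or percentages. Whole fragments were found, within 1e-06 of a whole number, for 99.8% of the 10615 entries with a mean of at least 1 FPKM, and limma-voom on them, added after seeing the data, called 18 entries between genotypes in GV oocytes, 864 in eggs and 187 for the interaction. Depth limits values under 1 FPKM, which rest on few fragments. Reference sequences and positions came from GENCODE M21 (GRCm38, the same build as mm10), matched by symbol for all 10 genes.

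Members and lists were chosen with earlier results of these data known. Named genes are all members, Psma7, genes of the list that passed between genotypes or in the interaction, the 3 highest and 3 lowest of the list between stages, and the 5 entries most like Cdk1 and Ccnb1. Mastl, Arpp19, Plk1, Ccnd3 and Ccne1 fall outside this rule and were named after their values were seen. Alternatives tried were 0.1 FPKM as the floor, adding 1 FPKM to each value, median-ratio rescaling, filters of none or 5 FPKM, moderation with no trend, a replicate block, 1 fit over all libraries, entries summed by name, 3-fold in place of a test, unadjusted p-values, and each library left out. Scripts (Python 3.11.15, numpy 2.4.6, pandas 2.3.3, scipy 1.17.1, matplotlib 3.10.9) were tested on simulated data.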

Additional observations from a re-analysis of the deposited data

Results flagged for a closer look

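Single libraries stood far from the other 3 of their group in 4 of 60 groups examined, where chance gives about 1 in 20. The gap to the nearest library was compared with the range of the group (Dixon's 95% limit for 4 samples). Pkmyt1 was 8.03 FPKM in Psma7 cKO egg library 1 and 4.99 to 5.31 in the others. Cdc25a was 15.6 FPKM in WT egg library 3 and 14.4 to 14.5 in the others. Cdc25c was 9.02 FPKM in WT GV library 4 and 9.45 to 9.53 in the others. The ratio of Ccnb2 to Ccnb1 was 0.0499 in Psma7 cKO GV library 4 and 0.0402 to 0.0418 in the others.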

How the results depend on the processing

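Depth limits Cdk1 in eggs (26 to 167 fragments) and the second Ccnb3 entry. Between stages, the rule of means over 3-fold apart gave 2 members and 9 genes of the list in WT, and 2 and 7 in Psma7 cKO. Between genotypes in eggs, members called were 1 with all 16 libraries in a single fit, 1 by unadjusted p and 0 to 1 with each library left out. Genes of the list called in eggs were 2 without a filter, with a mean of at least 5 FPKM or with all libraries in a single fit, 5 by unadjusted p, 0 without a trend, with the replicate block or by 3-fold, and 0 to 2 with each library left out. In GV oocytes the list gave 1 with all libraries in a single fit and 2 by unadjusted p. For the interaction, unadjusted p gave 1 member and 3 genes of the list, and leaving out each library gave 0 to 1 and 0 to 2. The cause was not tested. In fits without a filter most residual variances were 0, so those are unreliable.

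Deviations from group means correlated at -0.496 to 0.285 between libraries with the same replicate number, with 6 of 24 pairs over 0.1. Groups of 4 libraries are too small for these correlations to decide whether replicate numbers paired the libraries. With the replicate block Ccna2 no longer passed between stages in Psma7 cKO (adjusted p = 0.0637), nor without a filter (0.0539), and the second Ccnb3 entry no longer passed in WT without a filter (0.0945). Signs that turned belonged to values near 0 that did not pass. With each library left out, log2 differences between genotypes in GV oocytes ran from -0.16 to 0.16 for the first Ccnb3 entry (0.00219 in limma-voom, where its sign also turned), -0.0394 to 0.0942 for Ccna2, -0.11 to 0.19 for Pkmyt1, -0.0206 to 0.0591 for Ccnb1 and -0.00397 to 0.0627 for Cdc25a. In eggs they ran from -0.10 to 0.31 for the first Ccnb3 entry, -0.0629 to 0.0401 for Wee2, -0.0646 to 0.0148 for Cdc25c and -0.11 to 0.0401 for Ccna2. Between stages the first Ccnb3 entry ran from -0.20 to 0.20 in WT and -0.00800 to 0.25 in Psma7 cKO. For the interaction the ranges were -0.0999 to 0.31 for the first Ccnb3 entry, -0.0324 to 0.0707 for Wee2, -0.14 to 0.0138 for Ccna2 and -0.21 to 0.44 for Cdc25b.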
